A study of Mus musculus with 17 samples.

Results

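Hdac9, AI838599, Dagla, Arhgap19, Mbnl3 and Dab2ip are 6 of the 47643 rows in a table of expected counts from splenic regulatory T cells (Tregs) of the diabetes-prone NOD mouse strain. They were selected on their own counts, chosen by being lower in Nfkbid knockout than in NOD control libraries, and some of those counts are near 0. Since the knockout and control values made the choice, every knockout difference of these 6 rows is a description without a test. The choice had no stated cut-off. The stated choice did not use the transgenic libraries, though it was made with earlier results of these data known. In them 4 of the 6 rows were higher than in control libraries by a test over 9986 rows: AI838599, Hdac9, Dab2ip and Dagla. The control libraries of that test had served in the choice. Hdac9 entered that test only through its transgenic libraries. Across that whole test 5.23% of rows were higher.

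All animals carried a Foxp3-GFP reporter, which marks Tregs, and GFP+ cells were sorted from CD4+ T cells of the spleen before polyA RNA sequencing. The 17 libraries comprised 6 of NOD-60A Tg+ mice, which carry an Nfkbid transgene, 5 of Nfkbid knockout mice and 6 of control NOD mice. Each transgenic library was made from 1 sample, whereas each knockout or control library was a pool of 2, so genotype and pooling cannot be told apart when transgenic libraries are compared with the others. The names of the control libraries carry another identifier prefix than those of the transgenic and knockout libraries. Some control names also span a wider run of identifiers than others, though a pool of 2 is given for each. A further number in the names is consecutive over the knockout libraries, and no other library lies within that run. Some control numbers lie among the transgenic ones, and the other control numbers lie outside the ranges of both groups. Knockout genotype and this number therefore cannot be told apart. The part of this number in the differences between transgenic and control libraries was not tested. What the prefix and this number stand for, the promoter of the transgene, and the age and sex of the mice are not given in the sources used here.

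Nfkbid encodes an atypical IkB protein that acts in the nucleus, where it binds NF-kB subunits and changes the transcription of their target genes. Tregs restrain other immune cells under the control of the transcription factor Foxp3, and NF-kB signals take part in their development. Of the genes named here, Hdac9 encodes a class IIa histone deacetylase, which binds MEF2 transcription factors and, in mice, restrains Treg number and suppressive function. Dagla encodes the lipase that makes the endocannabinoid 2-arachidonoylglycerol (2-AG). Arhgap19 encodes an activator of GTP hydrolysis by small GTPases of the RhoA family, which in human T cell lines acts on RhoA during cell division. Dab2ip encodes a Ras GTPase-activating protein and scaffold that binds the kinase ASK1 downstream of the TNF receptor. Mbnl3 encodes an X-linked muscleblind protein, a family of RNA-binding regulators of splicing. AI838599 is annotated as a long intergenic noncoding RNA.

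Library totals ran from 3133388 to 4726615 counts, and 3 counts corresponded to 0.635 to 0.957 CPM, the count scaled to the unadjusted library total. Levels below are CPM of totals scaled by TMM, a factor that makes most rows comparable between libraries. Counts of several rows did not match the gene named: B2m and Tmsb4x, transcribed in most cells, stood at 0 in all 17 libraries, and Actb had 0 to 7 counts. The exons of all rows were moved along GRCm38 in proportion to their position, at slopes from -1 to 1 kb per Mb. The slope of 0.45 kb per Mb was picked because counts agreed best with protein-coding exons there. Spearman's rank correlation between rows, averaged over 20 chromosomes, was 0.547 at that slope against 0.532 unmoved. At -0.05 and 0.05 kb per Mb it was 0.500 and 0.510. At the picked slope it was higher than unmoved on 15 of the 20 chromosomes and lower on chromosome X, with 0.385 against 0.492. The names below are therefore those of the table and not established identities. Knockout replicates 2, 3 and 5 stood apart, with 13466 to 13793 rows above 0 and 25.3 to 28.2% of counts from mitochondrial rows, against 15024 to 15908 rows and 22.04 to 22.5% in knockout replicates 1 and 4. Transgenic replicate 1 stood apart too: the chi-square of counts per row, near 1 for sampling noise alone, was 10.96 to 20.4 in its pairs with the other transgenic libraries and 2.46 to 5.40 in pairs among those. Mitochondrial rows took 24.8% of its counts, against 19.7 to 22.3% in the other 5. It was the lowest transgenic library for the AI838599, Dagla and Arhgap19 rows, and without it the transgenic against control log2 fold changes were 2.26 (SE 0.22, edgeR adjusted p = 2.1e-07), 1.09 (SE 0.25, adjusted p = 0.0079) and 0.12 (SE 0.24, adjusted p = 0.88). The same chi-square was 4.47 to 27.5 in knockout pairs and 2.88 to 8.94 in control pairs. It was 4.47 between knockout replicates 1 and 4 and 6.21 between 2 and 5. Knockout replicate 3 had 11.8 and 10.6 with replicates 2 and 5, and 11.4 and 12.3 with 1 and 4. By this measure knockout replicates 2, 3 and 5 were not a uniform set. The Foxp3 row held 256 to 368 CPM over all 17 libraries. For the Nfkbid row transgenic libraries held 6.99 to 10.99 CPM, knockout libraries 2.22 to 8.26 and control libraries 3.07 to 5.38, so it does not separate knockout from control and does not check the genotype labels. Of 10 Treg marker rows, Tnfrsf18 had 0 to 1 counts and Cd3e 0 to 11, and each of the other 8 had at least 5 in every library. The summed levels of the marker rows of NK, myeloid, CD8 T and erythroid cells were at most 30.5, 25.1, 17.8 and 0.86 CPM in any library. The part of these marker levels in the results below was not tested.

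The Hdac9 row (ENSMUSG00000004698) lies on chromosome 12 of GRCm38 from 34047580 to 34917095, on the minus strand. It counts 1 transcript of 12 exons and 4413 bases, in a gene of 870 kb. At the move of 0.45 kb per Mb, which is 15.5 kb here, 4.94% of these exon bases lay on Hdac9 exons and all of them still lay within the gene. The RefSeq start nearest to that transcript, 0.015 kb away, is shown first below because the Hdac9 row was higher in transgenic libraries and near 0 in knockout libraries, and another RefSeq start of the gene lies 388 kb from the transcript's start. The Dab2ip start at the outer end of the counted transcripts is shown beside it as that of another row that was higher in transgenic libraries. Each sequence is the reference one in RefSeq, GRCm38.p6, from 250 bases before to 50 after the start, and NOD mice may differ from it.
Hdac9, chr12:34528840-34529139, minus strand: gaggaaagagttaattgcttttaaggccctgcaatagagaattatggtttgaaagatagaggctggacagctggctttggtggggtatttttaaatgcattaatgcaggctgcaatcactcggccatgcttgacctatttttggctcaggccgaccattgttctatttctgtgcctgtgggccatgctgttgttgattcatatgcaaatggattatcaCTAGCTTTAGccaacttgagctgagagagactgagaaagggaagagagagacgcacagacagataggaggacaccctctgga
Dab2ip, chr2:35558208-35558507, plus strand: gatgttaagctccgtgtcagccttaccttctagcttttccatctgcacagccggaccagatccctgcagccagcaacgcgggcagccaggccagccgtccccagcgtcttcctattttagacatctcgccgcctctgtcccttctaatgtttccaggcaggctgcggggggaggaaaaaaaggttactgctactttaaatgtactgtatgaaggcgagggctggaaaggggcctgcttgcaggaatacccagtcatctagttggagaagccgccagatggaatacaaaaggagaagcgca
Capitals mark the only match in these 2 windows to any of 5 patterns searched on both strands, none of which contains another. That match is to CTA and TAG with any 4 bases between them, here GCTT. This pattern is looser than the MEF2 site, so the match does not establish such a site. The pattern was present in 3.69% of 32851 RefSeq promoters of the same length. The others were the forkhead pattern GTAAACA, present in 3.65% of promoters, the Runx pattern TGTGGT in 16.8%, the Ets pattern GGAAGT in 23.8%, and the NF-kB consensus in 4.51%. RefSeq promoters were found for 4 of the 6 rows, Hdac9, Arhgap19, Mbnl3 and Dab2ip. Among the other windows of these genes, Runx and Ets patterns were each present once, at an inner Dab2ip start 134 kb from the outer one, and no pattern was present at the remaining starts.

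The Hdac9 row was nearly empty in knockout libraries and filled in transgenic ones. It held 7.87 to 14.8 CPM with a median of 9.40 in the 6 transgenic libraries. In the knockout libraries it held 0.267, 0, 0, 0.556 and 0 CPM in replicates 1 to 5, which are 1, 0, 0, 2 and 0 counts. In the 6 control libraries it held 2.15 to 5.87 CPM with a median of 2.76. No transgenic library was as low as any control library, and no knockout library was as high as any control library. Its mean was 10.02 ± 2.54 CPM (SD, n = 6) in transgenic against 3.26 ± 1.43 (SD, n = 6) in control libraries, a log2 fold change of 1.62 (SE 0.34), with an adjusted p of 0.0038 in edgeR's quasi-likelihood F test, adjusted by the Benjamini-Hochberg method over all rows tested. The control libraries had also served to choose the row, which holds for each transgenic test below. The filter on low counts asks for 2.91 CPM or more in 5 libraries, which the row reached in 6 transgenic, 0 knockout and 3 control libraries. It therefore entered the test through the group where it was high, and this favoured a higher transgenic value. With no filter the value was 1.63 (SE 0.38, adjusted p = 0.0029). The other 5 rows passed the filter without the transgenic libraries. All 27 alternatives run kept the transgenic call, with values of 1.48 to 1.87, and most of them used the same filter. Because whole populations were sequenced, more cells with a transcript and more transcript in each cell cannot be told apart.

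Against control libraries the summed Hdac9 counts were 3 in knockout and 72 in control, a ratio of 0.055 after scaling by library totals, with an exact 95% interval of 0.0111 to 0.167 that covers counting error only. Between transgenic and knockout libraries the sums were 197 and 3, a ratio of 57.2 with an interval of 19.3 to 280. The knockout and control counts chose the row, so neither interval is a test. The fitted log2 fold change for knockout against control was -3.96 (SE 0.59), and it was -4.90 without knockout replicate 4 and -2.88 without knockout replicates 2, 3 and 5. With so few counts the fitted size moved with the libraries left out.

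AI838599 (ENSMUSG00000085180) lies near the start of chromosome 4, from 3242055 to 3258092 on the plus strand, with 6 counted exons. Moved by 1.46 kb, 14.3% of its exon bases lay on its own exons, 67.6% lay within its own span and 885 bases lay on exons of Gm11783. Its fitted differences were the largest of the 6 rows in each of the 3 comparisons. It held 57.0 to 104 CPM with a median of 73.4 in transgenic libraries. Knockout replicates 1 to 5 held 0, 0, 1.42, 0.556 and 0 CPM, which are 0, 0, 5, 2 and 0 counts. Control libraries held 11.3 to 21.3 CPM with a median of 16.5. The lowest transgenic library was thus above every control library, and all control libraries were above all knockout libraries. The mean was 75.4 ± 15.3 CPM (SD, n = 6) in transgenic and 16.4 ± 3.54 (SD, n = 6) in control libraries, a log2 fold change of 2.19 (SE 0.22, edgeR adjusted p = 5.4e-07). That call held in all 27 alternatives, at 2.08 to 2.29.

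The summed AI838599 counts were 7 in knockout and 376 in control libraries, a scaled ratio of 0.0246 with an exact 95% interval of 0.00981 to 0.0511. Of those 7 counts, 5 came from knockout replicate 3. The fitted log2 fold change was -5.21 (SE 0.42) for knockout against control, and it was -6.49 without that replicate. Transgenic and knockout libraries summed to 1481 and 7 counts, a ratio of 184 with an interval of 89.2 to 459. Both intervals cover counting error only. Neither is a test, since the knockout and control counts chose the row. Like Hdac9, the row was near 0 in knockout replicates 1 and 4 as well as in replicates 2, 3 and 5, with at most 0.556 CPM in the first set and 1.42 in the second.

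**Figure D1:**
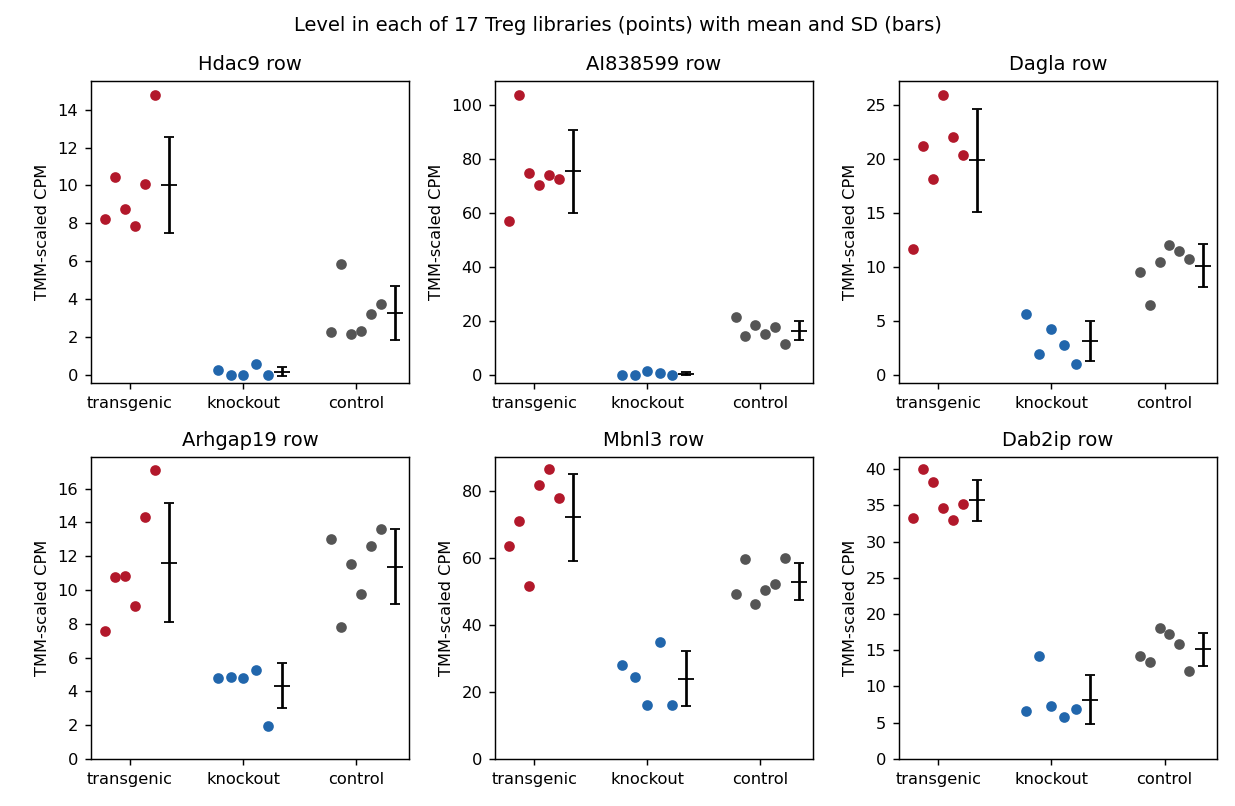
Level of each of the 6 rows in TMM-scaled CPM (vertical axis, linear, from 0) in every library. Points are libraries of the transgenic (n = 6), knockout (n = 5) and control (n = 6) groups, and bars give the mean and SD. In the Hdac9 and AI838599 panels the knockout points lie at or near 0 and the transgenic points lie above all control points, whereas in the Arhgap19 panel transgenic and control points overlap.

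The Dagla row (ENSMUSG00000035735, chromosome 19, 10245265 to 10304877, minus strand) covers an antisense gene, AC132148.1, but shares no exon base with it. Moved by 4.62 kb, 12.4% of its exon bases lay on Dagla exons and 99.0% within the gene. It held 11.7 to 25.9 CPM with a median of 20.8 in transgenic libraries. In knockout replicates 1 to 5 it held 5.597, 1.94, 4.25, 2.78 and 0.976 CPM. In control libraries it held 6.43 to 12.1 CPM with a median of 10.6. Transgenic replicate 1, at 11.7 CPM, lay within the control range, and the other 5 transgenic libraries lay above it. All knockout libraries were below all control libraries.

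The Dagla mean was 19.9 ± 4.77 CPM (SD, n = 6) in transgenic and 10.1 ± 2.00 (SD, n = 6) in control libraries, a log2 fold change of 0.98 (SE 0.26, edgeR adjusted p = 0.021). This call was less steady than those of Hdac9 and AI838599, since it was made in 23 of 27 alternatives. The adjusted p was 0.058 without transgenic replicate 4, 0.051 without transgenic replicate 5, 0.056 without control replicate 2 and 0.057 with the replicate number as a block, at log2 fold changes of 0.89, 0.95, 0.88 and 1.00. The knockout mean was 3.11 ± 1.84 CPM (SD, n = 5), and the described log2 fold change was -1.66 (SE 0.32) for knockout against control.

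Dab2ip (ENSMUSG00000026883, chromosome 2, 35558266 to 35730994, plus strand) shares 347 exon bases with Gm13446 on the opposite strand, and no source used here states whether counting used strand. Reads of the 2 genes therefore cannot be told apart in those bases. Moved by 16.04 kb, 5.34% of its exon bases lay on Dab2ip exons and 41.7% within the gene. Its level was 33.0 to 40.0 CPM with a median of 34.9 in transgenic libraries. Knockout replicates 1 to 5 held 6.66, 14.2, 7.37, 5.84 and 6.83 CPM. Control libraries held 12.1 to 18.0 CPM with a median of 15.0. Every transgenic library was above every control library. Knockout replicate 2 lay inside the control range, and the other 4 knockout libraries lay below it.

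The Dab2ip mean was 35.7 ± 2.81 CPM (SD, n = 6) in transgenic and 15.1 ± 2.27 (SD, n = 6) in control libraries, a log2 fold change of 1.24 (SE 0.18, edgeR adjusted p = 6.3e-05), which held in all 27 alternatives at 1.18 to 1.29. For knockout against control the described log2 fold change was -0.89 (SE 0.20), and it was -1.18 without knockout replicate 2. The knockout mean was 8.19 ± 3.43 CPM (SD, n = 5).

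Arhgap19 (ENSMUSG00000025154, chromosome 19, 41766588 to 41802047, minus strand) was lower in knockout than in control libraries but did not pass the test in transgenic ones. Moved by 18.8 kb, 7.25% of its exon bases lay on exons of Arhgap19 and 81.4% within the gene. It held 7.56 to 17.1 CPM with a median of 10.8 in transgenic libraries. Knockout replicates 1 to 5 held 4.80, 4.85, 4.82, 5.28 and 1.95 CPM. Control libraries held 7.82 to 13.6 CPM with a median of 12.1. The transgenic libraries spanned the whole control range, and all knockout libraries were below both groups. Means were 11.6 ± 3.53 CPM (SD, n = 6) in transgenic and 11.4 ± 2.21 (SD, n = 6) in control libraries, a log2 fold change of 0.03 (SE 0.24, edgeR adjusted p = 0.97). None of the 27 alternatives called it, at -0.11 to 0.12. The knockout mean was 4.34 ± 1.35 CPM (SD, n = 5), with a described log2 fold change of -1.38 (SE 0.27) against control.

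Mbnl3 (ENSMUSG00000036109, chromosome X, 51117269 to 51206532, minus strand) had an intermediate pattern. Moved by 23.0 kb, 0% of its exon bases lay on exons of Mbnl3 and 96.3% within the gene, on the chromosome where the move lowered the agreement. Transgenic libraries held 51.5 to 86.6 CPM with a median of 74.5. Knockout replicates 1 to 5 held 28.0, 24.6, 16.2, 35.0 and 15.9 CPM. Control libraries held 46.2 to 59.9 CPM with a median of 51.3. Of the transgenic libraries 5 of 6 were above every control library, and transgenic replicate 3 lay inside the control range. The means of 72.1 ± 13.0 CPM (SD, n = 6) in transgenic and 52.9 ± 5.61 (SD, n = 6) in control libraries gave a log2 fold change of 0.45 (SE 0.17), which missed the threshold with an edgeR adjusted p of 0.12.

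That transgenic difference of the Mbnl3 row passed the test in 2 of 27 alternatives. Its adjusted p was 0.017 when only transgenic and control libraries were fitted and 0.016 without knockout replicates 2, 3 and 5, which was tried after the data had been seen. The knockout mean was 23.9 ± 8.12 CPM (SD, n = 5), a described log2 fold change of -1.14 (SE 0.18) against control, and -0.75 without knockout replicates 2, 3 and 5. Knockout replicates 1 and 4 held 28.0 to 35.0 CPM, while replicates 2, 3 and 5 held 15.9 to 24.6, so the libraries with fewer rows above 0 were also the lower ones for Mbnl3. For Dab2ip the order was the other way round, with 5.84 to 6.66 CPM in replicates 1 and 4 and 6.83 to 14.2 in replicates 2, 3 and 5. The part of those 3 libraries in the knockout levels was not tested beyond leaving them out.

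The transgenic and control groups of 3 of the 6 rows did not overlap, namely Hdac9, AI838599 and Dab2ip, where 4.66% of all rows tested had every transgenic library above every control library. In knockout against control libraries 5 of the 6 had every knockout library below every control library, where 1.65% of all rows did and 1.01% of rows were called lower. Nothing is read from that count, since the comparison chose the rows. Every transgenic library was above every knockout library in all 6 rows, where 4.25% of rows were so separated, and the knockout libraries had again been part of the choice. The described log2 fold changes for transgenic against knockout were 7.40 (SE 0.39) for AI838599, 5.58 (SE 0.55) for Hdac9, 2.64 (SE 0.31) for Dagla, 2.13 (SE 0.20) for Dab2ip, 1.59 (SE 0.18) for Mbnl3 and 1.41 (SE 0.27) for Arhgap19.

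The order of the group levels was transgenic, control, knockout in the means of all 6 rows, where the choice had set the knockout side. The share of all rows with this order of means was not computed, so nothing is read from this order. For Arhgap19 the transgenic and control means were 11.6 and 11.4 CPM, and the medians of 10.8 and 12.1 had the other order. For Hdac9 and AI838599 no library broke the order transgenic, control, knockout. Over all rows tested 30 had such an unbroken order, which is 0.3%, and 17 of these 30 lie in the first 10 Mb of chromosome 14, where none of the 6 rows is. The knockout side of the order chose the 6 rows, and 165 of all rows tested had every knockout library below every control library. Nothing is therefore read from these 2 rows against the 0.3%. Transgenic and control libraries were not separated for Arhgap19, Mbnl3 and Dagla, and knockout and control libraries were not fully separated for Dab2ip. The transgenic and the knockout side of the order use the same control libraries.

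**Figure D2:**
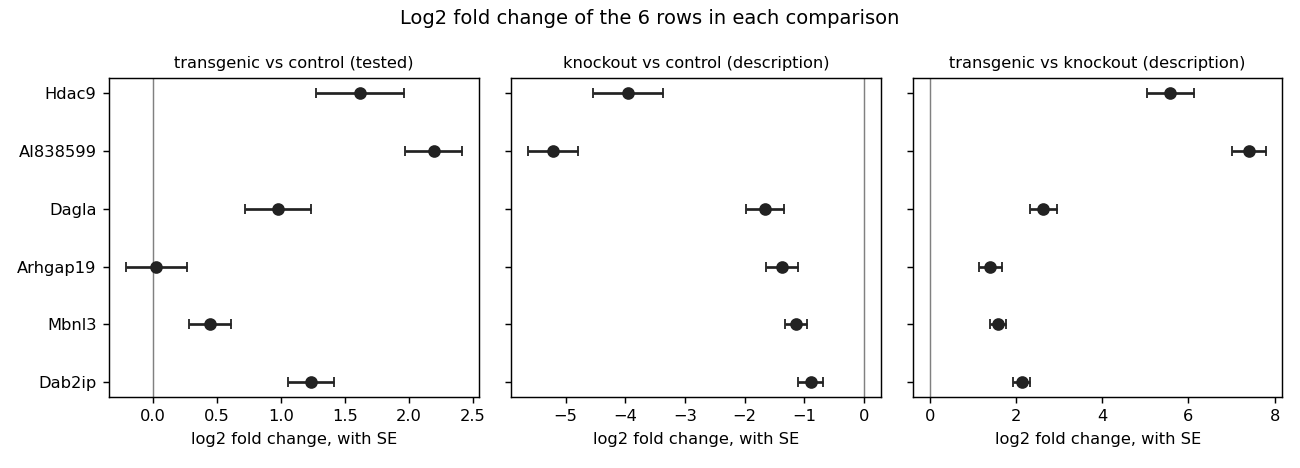
Log2 fold change (horizontal axis, with its own scale in each panel) of the 6 rows in the 3 comparisons, with the standard error as a bar. The left panel was tested and the middle and right panels are descriptions. AI838599 has 2.19 against control in transgenic and -5.21 in knockout libraries, while Arhgap19 has 0.03 and -1.38.

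The rows whose log2 levels were most like each of the 6 were found by Pearson's r over the 17 libraries, as a description. The libraries fall into 3 groups and share their depth and scaling, so rows with the same order of group means tend to have a high r. Hdac9 and AI838599 were among each other's 3 closest rows, with r = 0.953, and the Dguok row was closest to both, with 0.963 and 0.970. Dguok, which encodes a mitochondrial nucleoside kinase, averaged 162 ± 51.7 CPM in the 6 transgenic, 0.921 ± 0.522 in the 5 knockout and 16.8 ± 3.90 in the 6 control libraries (SD). It was also closest to Dab2ip, at 0.967. Tnfsf8, which encodes the CD30 ligand, followed for Hdac9 at 0.956 and Ltb4r2, a leukotriene receptor gene, for AI838599 at 0.945.

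Among the rows most like Dagla were Endod1 and Prdm1, with r of 0.951 and 0.940. Prdm1, which encodes the effector regulator Blimp-1, averaged 42.1 ± 9.44 CPM in the 6 transgenic, 7.17 ± 4.42 in the 5 knockout and 25.7 ± 6.11 in the 6 control libraries (SD). For Arhgap19 the closest were Sstr3, Tram1l1 and Naa40 at 0.935, 0.909 and 0.899. Mbnl3 was most like Chst7, Naip2 and Hdac9 at 0.939, 0.936 and 0.930, and among those most like Dab2ip, beside Dguok, was Dclre1b at 0.962. Between pairs of the 6 rows r ran from 0.691 for Arhgap19 with Dab2ip to 0.953 for Hdac9 with AI838599, and a lower level in knockout libraries was what chose them. Predicted and clone-named rows as close as the third were counted only, with 7 for AI838599, 6 of them in the first 10 Mb of chromosome 14, and 5 for Dab2ip, all 5 there.

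Most rows next to the 6 on the chromosome were not called. Up to 5 tested rows on each side gave 55 neighbours, AI838599 having none on its lower side. In knockout against control libraries 2 of the 55 were called higher and 2 lower, where 0.881% of all rows were higher and 1.01% lower. They were chosen after their values were seen. Higher were Lcor, 204 kb from Arhgap19, at 0.70 (SE 0.17, edgeR adjusted p = 0.032) and Pdcl, 1619 kb from Dab2ip, at 0.89 (SE 0.23, adjusted p = 0.046). Lower were Cdhr3, 955 kb from Hdac9, at -1.83 (SE 0.43, adjusted p = 0.032) and Entpd1, 1025 kb from Arhgap19, at -1.55 (SE 0.31, adjusted p = 0.01). Against control, transgenic libraries had 4 neighbours called higher and 2 lower, where 5.23% and 2.17% of all rows were. The higher ones were F730043M19Rik and Scin, 900 and 5143 kb from Hdac9, Entpd1, and Zfp449, 5140 kb from Mbnl3. Of these, Scin passed the filter only through its transgenic libraries. The lower ones were Cdhr3 and Frat1. In transgenic against knockout libraries 3 of the 55 were called higher and 5 lower, where 6.34% and 4.33% of all rows were. Also chosen after their values were seen, the higher ones were Entpd1 at 2.66, Gm10143 at 1.07 and Firre, 482 kb from Mbnl3, at 1.10. Gm10143 lies 42.9 kb from Dagla (SE 0.17, edgeR adjusted p = 0.00027). The lower ones were Gm5434, Lcor, Frat1, Ints6l and Pdcl.

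The closest neighbour of Hdac9 on each side was Atxn7l1os2, 653 kb away, and Agr2, 1076 kb away. Atxn7l1os2 held a mean of 140 CPM in transgenic, 183 in knockout and 130 in control libraries, and Agr2 held 102 in transgenic, 110 in knockout and 105 in control libraries. Neither was called in any comparison. Tmem68, 291 kb from AI838599, held 76.7 CPM in transgenic, 88.5 in knockout and 70.3 in control libraries, with log2 fold changes of 0.12 (SE 0.17) and 0.33 (SE 0.18) against control. Near Dagla lay Tmem258 at 37.4 kb and Sdhaf2 at 196 kb, near Mbnl3 lay Rap2c at 99.3 kb and Phf6 at 1706 kb, and near Dab2ip lay Ggta1 at 95.04 kb and Ttll11 at 20.2 kb. None of these 6 was called against control. Frat1, 27.9 kb from Arhgap19, was lower in transgenic libraries, with a mean of 17.7 against 28.3 CPM in control libraries (log2 fold change -0.68, SE 0.20, adjusted p = 0.039).

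**Figure D3:**
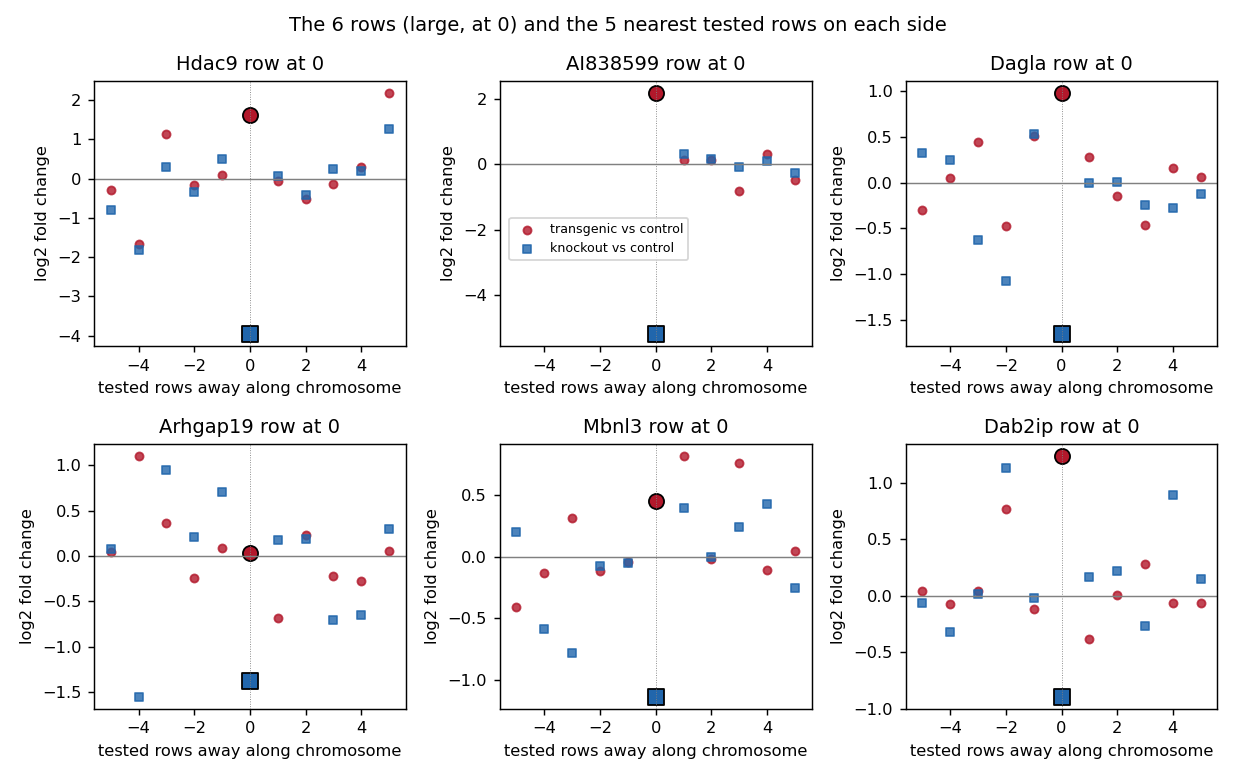
Log2 fold change (vertical axis, scale differs between panels) of each of the 6 rows, at 0 on the horizontal axis, and of the nearest tested rows counted along the chromosome. Red circles compare transgenic with control libraries and blue squares knockout with control. For AI838599 the 5 neighbours run from -0.26 to 0.33 in knockout against control, while the row itself is at -5.21.

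The families and pathways of the 5 genes with a known role were taken as lists without the 6 rows themselves, and most of their members did not pass the test. Of 19 genes of histone deacetylases, MEF2 factors and HDAC9 partners, 9 were tested. In transgenic against control libraries 1 was higher and 0 lower, in knockout against control 0 passed, and in transgenic against knockout 1 was higher and 0 lower, where 6.34% of all rows were higher and 4.33% lower. The list's median log2 fold changes were -0.14, -0.10 and 0.10 in those comparisons, and those of all rows -0.01, -0.02 and 0.00. For knockout against control, where edgeR called 0 of the 9, so did DESeq2 and limma, and 3 rows were lower and 0 higher at an unadjusted p under 0.05. The row that passed was Hdac10, a class IIb deacetylase, which reached the filter's level in 5 transgenic, 0 knockout and 3 control libraries and so entered the test through the transgenic group. Transgenic libraries ran over 1.03 to 16.8 CPM, knockout libraries over 0 to 2.22 and control libraries over 1.68 to 4.34. Transgenic against control gave a log2 fold change of 1.78 (SE 0.51, adjusted p = 0.034), and transgenic against knockout gave 3.45 (SE 0.64, adjusted p = 0.00093). Its transgenic and control libraries overlapped, and in 12 of 27 alternatives no row of the list was called higher in transgenic than in control libraries.

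Of 17 genes of the 2-AG pathway 8 were tested, and 1 passed in transgenic against control and in transgenic against knockout libraries, 0 in knockout against control by edgeR, DESeq2 or limma, where also 0 had an unadjusted p under 0.05. Over all rows 5.23% were higher in transgenic against control and 6.34% in transgenic against knockout. The row that passed was Fabp5, a fatty acid binding protein that carries endocannabinoids in cells. Its mean was 12.5 ± 4.56 CPM in the 6 transgenic, 6.09 ± 2.47 in the 5 knockout and 4.98 ± 0.768 in the 6 control libraries (SD). Transgenic libraries exceeded control ones by 1.32 on the log2 scale (SE 0.29, adjusted p = 0.0049) and knockout ones by 1.04 (SE 0.30, adjusted p = 0.029). Knockout against control gave 0.28 for this row (SE 0.31, adjusted p = 0.6), where the Dagla row had -1.66. The list's medians were -0.02, 0.17 and -0.14 for transgenic against control, knockout against control and transgenic against knockout.

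Among 36 genes of RhoA-family GTPases and their GTPase-activating proteins 22 were tested. For transgenic against control 3 were higher, for knockout against control 1 was higher, and for transgenic against knockout 3 were higher and 3 lower. Over all rows the shares were 5.23% higher, 0.881% higher, and 6.34% higher and 4.33% lower. Cdc42, a GTPase of the actin cytoskeleton, rose in transgenic against control libraries by 1.24 on the log2 scale (SE 0.31, adjusted p = 0.014). Arhgap24, an activating protein for Rac, had 1.81 (SE 0.48, adjusted p = 0.023), but it reached the filter's level in the 6 transgenic libraries and in 0 knockout and 0 control libraries, so only a row high in transgenic libraries could enter in this way. With no filter its adjusted p was 0.066. Arhgap24 held 4.49 ± 1.58 CPM (SD, n = 6) in transgenic and 1.23 ± 0.799 (SD, n = 6) in control libraries, and Cdc42 held 38.2 ± 14.5 CPM (SD, n = 6) in transgenic and 16.1 ± 3.92 (SD, n = 6) in control libraries. Arhgap45 rose by 0.43 (SE 0.10, adjusted p = 0.0088), at 129 ± 9.37 CPM (SD, n = 6) in transgenic and 96.2 ± 8.74 (SD, n = 6) in control libraries. Rhoc, a GTPase close to RhoA, rose in knockout libraries, with 9.74 ± 3.30 CPM (SD, n = 5) against 3.21 ± 1.47 (SD, n = 6) in control libraries, a log2 fold change of 1.61 (SE 0.32, adjusted p = 0.01). It was the row of this list called in knockout against control, and its direction was opposite to that of the Arhgap19 row. The rows higher in transgenic than in knockout libraries were again Arhgap24 at 4.08, with the same limit from the filter, Cdc42 at 2.03 and Arhgap45 at 0.49, and those lower were Rhoc at -1.84 and, chosen after their values were seen, Rhoh at -0.52 and Arhgap12 at -0.37. The list's medians were -0.15, 0.00 and -0.03.

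Of 18 muscleblind, CELF and other splicing regulators 11 were tested. In transgenic against control 1 was lower, in knockout against control 1 was higher and in transgenic against knockout 1 was lower, where 2.17%, 0.881% and 4.33% of all rows were. The Celf5 row fell in transgenic libraries, with 453 ± 53.5 CPM (SD, n = 6) against 643 ± 45.8 (SD, n = 6) in control libraries, a log2 fold change of -0.51 (SE 0.09, adjusted p = 0.00048), and -0.40 (SE 0.09, adjusted p = 0.0058) against knockout libraries. The Celf2 row rose in knockout libraries, with 2229 ± 413 CPM (SD, n = 5) against 1601 ± 108 (SD, n = 6) in control libraries, a log2 fold change of 0.48 (SE 0.11, adjusted p = 0.027). The other tested rows of this list passed in no comparison. Its medians were 0.15, 0.10 and -0.02.

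For Dab2ip, 14 of 22 genes of Ras GTPase-activating proteins and DAB2IP partners were tested. In transgenic against control libraries 2 were higher and 1 lower, in knockout against control 0 passed, and in transgenic against knockout 1 was higher and 2 lower. Over all rows 5.23% were higher and 2.17% lower in the first of these, 0.881% and 1.01% in the second and 6.34% and 4.33% in the third. The 0 for knockout against control is that of edgeR and of limma, while DESeq2 called 1 higher, and at an unadjusted p under 0.05 edgeR had 1 higher and 2 lower. Rasal1, a calcium-responsive Ras GTPase-activating protein, held 49.7 ± 4.55 CPM (SD, n = 6) in transgenic and 29.5 ± 5.29 (SD, n = 6) in control libraries, a log2 fold change of 0.75 (SE 0.15, adjusted p = 0.0023). Map3k5, which encodes ASK1, rose by 0.48 (SE 0.13, adjusted p = 0.02) against control, with 61.0 ± 1.82 CPM (SD, n = 6) in transgenic and 43.7 ± 5.28 (SD, n = 6) in control libraries. Rasa3 fell by 0.56 on the log2 scale against control (SE 0.10, adjusted p = 0.00079), and by 0.46 against knockout. Rasa4 was lower in transgenic than in knockout libraries at -0.71 (SE 0.12, adjusted p = 0.00055), and Rasal1 was higher at 0.65 (SE 0.16, adjusted p = 0.011). The list's medians were -0.01, -0.07 and 0.03. Like the 6 rows, these rows carry the names of the table.

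**Figure D4:**
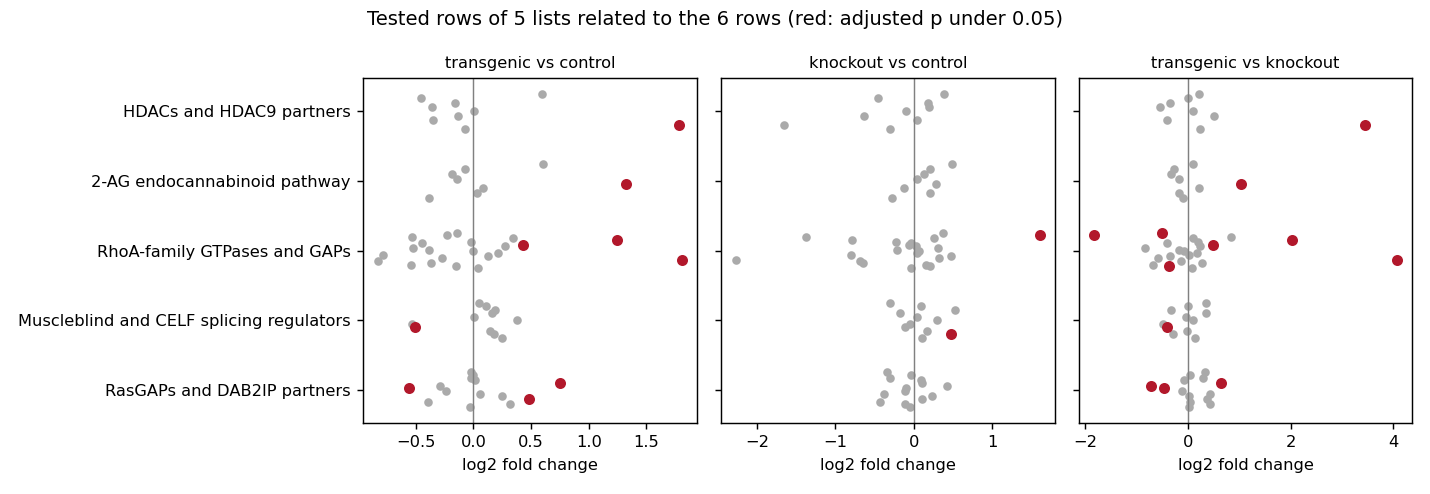
Log2 fold change (horizontal axis, own scale in each panel) of the tested rows of the 5 lists in the 3 comparisons, 1 point a row, red where edgeR's adjusted p was under 0.05. In knockout against control 2 points are red, Rhoc at 1.61 and Celf2 at 0.48.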

How the data were processed

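Foxp3-GFP+ splenic Tregs were sequenced in 17 libraries. The authors deposited expected counts per gene, and per the submitters' processing notes reads were aligned with Bowtie2 to GRCm38. Per the design text, Ensembl 102 transcripts were used and reads carried molecular identifiers. No source used here states whether these removed duplicates, and intervals and the floor of 3 counts cover counting error only. Of the values 5.87% were not whole, and all were rounded. Symbols and coordinates came from GENCODE M21 (GRCm38), which matched 47224 of 47643 rows.

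Groups were compared by the quasi-likelihood F test of edgeR 4.0.16 (R 4.3.3), fitted once to all 17 libraries after TMM scaling and filterByExpr on the groups, and p was adjusted by Benjamini-Hochberg over 9986 rows with a threshold of 0.05. Rows had a common biological coefficient of variation of 0.241. Standard errors are the log2 fold change divided by the root of F. Totals were 3133388 to 4726615 counts. The library names carry identifiers, but whether these are of animals is not stated, and p-values cover only how these libraries differ. Every pair of libraries within a group differed by more than sampling noise. The script was tested on simulated data.

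The 6 rows and the lists were chosen with earlier results of these data known. Named rows were the 6, up to 4 called rows of each list, the 3 rows most like each of the 6 and the nearest tested row on each side, with predicted, clone-named and receptor-segment rows counted only among the most alike. Some rows named by this rule, and the B cell marker level, are not reported here. Alternatives were RLE and upper quartile scaling, 2 other filters, unrounded counts, a fit of the 2 groups compared, leaving out each library, a replicate block, limma 3.58.1 (voom) and DESeq2 1.42.0.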

Additional observations from a re-analysis of the deposited data

Results flagged for a closer look

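In each of the 18 combinations of a row and a group, the gap between the highest or lowest library and its neighbour was divided by the whole range. Chance flags about 1 in 20 groups, and 3 of the 18 were flagged. Transgenic replicate 6 was the highest of 6 for the Hdac9 row, at 14.8 CPM, with a gap of 0.625 of the range against a critical value of 0.625. The Hdac9 call against control was still made without this library. Knockout replicate 5 was the lowest of 5 for the Arhgap19 row, at 1.95 CPM, with 0.855 against 0.71. This is also the knockout library with the highest mitochondrial share, 28.2%, and whether the 2 are linked was not tested. Knockout replicate 2 was the highest of 5 for the Dab2ip row, at 14.2 CPM, with 0.817 against 0.71, and it is the knockout library that lies inside the control range.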

How the results depend on the processing

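In transgenic against control libraries the calls of Hdac9, AI838599 and Dab2ip held in all 27 alternatives, and Arhgap19 was called in none. For Hdac9 this count is limited, since the row passed the main filter only through its transgenic libraries. Most alternatives kept that filter. The Dagla call ended in 4, with the replicate number as a block (1.00, adjusted p = 0.057) and in 3 of the fits that left out 1 library, which ran from 0.88 to 1.09. Mbnl3 was called at 0.45 in the fit of the 2 groups and at 0.46 without knockout replicates 2, 3 and 5, the alternative chosen after seeing the data. Why was not tested, though these 2 alternatives use fewer samples. The same numbers in different groups did not pair the libraries: of 16 same-number pairs 1 had a correlation of deviations above 0.1, in a range of -0.51 to 0.36, so the block is not read as a pairing, and it ended no other call of the 6 rows.

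Without knockout replicates 2, 3 and 5 the log2 fold changes for knockout against control were -2.88 for Hdac9, -5.75 for AI838599, -0.75 for Mbnl3 and -1.27 for Dab2ip, and for transgenic against knockout 4.51, 7.95, 1.21 and 2.52. Leaving out 1 library gave ranges of -4.90 to -3.68 for Hdac9, -6.49 to -4.88 for AI838599 and -1.18 to -0.80 for Dab2ip in knockout against control, and 5.30 to 6.52, 7.08 to 8.68 and 2.03 to 2.42 in transgenic against knockout. When only knockout and control libraries were fitted, the Hdac9 row did not pass the filter and gave no value. The other descriptions of the 6 rows moved by less than 1 SD in the alternatives run.

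Counts over all rows moved more, and the cause was not tested. In transgenic against control, 522 rows were higher (785 in the fit of 2 groups, 879 without knockout replicates 2, 3 and 5) and 217 lower (441 and 469, and 140 to 280 when 1 library was left out, with 140 without control replicate 3 and 143 without transgenic replicate 5). In knockout against control, 88 were higher, with 223 unfiltered, 305 by DESeq2, 50 by limma, 23 with the block, 34 in 2 groups, 10 without the 3 knockout libraries and 29 to 592 when 1 was left out. There 101 were lower, with 348, 268, 44 with the block, 42 in 2 groups, 33 without the 3, and 55 to 532 when 1 was left out. The largest of these counts came without knockout replicate 4, and without transgenic replicate 1 they were 289 and 229. In transgenic against knockout, 633 were higher (420 in 2 groups) and 432 lower, with 214 with the block, 231 in 2 groups, 208 without the 3, and 262 to 826 when 1 was left out, the highest without transgenic replicate 1. Summed over the comparisons, the histone deacetylase list had 2 calls (0 by limma, 1 with the block, 1 to 5 when 1 library was left out). The 2-AG list had 2 (1 with the block, in 2 groups and without the 3 knockout libraries, and 1 to 2 when 1 was left out), and the splicing list 3 (2 to 5 when 1 was left out). Depth limits the low rows: 3 counts are 0.635 to 0.957 CPM, so the Hdac9 and AI838599 levels in knockout libraries, at 0 to 1.42 CPM, rest on 0 to 5 counts each.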
